A study of Homo sapiens with 18 samples.

Results

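The genes described here are 10 genes of the TGF-beta pathway. They are the ligands TGFB1 and TGFB2, the receptors TGFBR1 and TGFBR2, the signal carrier SMAD3 and the brakes SMAD7, SKIL and PMEPA1. The others are the matrix proteins TGFBI and LTBP2, the latter of the latent TGF-beta binding protein family. These 10 genes were chosen by name with earlier results of these data known, so their counts beside those of all genes are a description. Each was found in the count tables by its Ensembl identifier, with 1 row among 60558 rows for H1650 and 60605 for PC9. All 10 had enough counts to be tested in both lines. The libraries are RNA sequencing of brain metastatic derivatives of H1650 and of PC9, both established from human lung adenocarcinoma and both carrying an EGFR-activating mutation. Each line had 3 groups of 3 libraries, which the labels name Tr-BrM S100A9-inh, Tr-BrM control and BrM control. The BrM and Tr-BrM controls carry the treatment label control. The sources used here do not explain the prefix Tr, nor say by which agent S100A9, a calcium-binding alarmin, was inhibited or whether a derivative is 1 clone. The labels also do not tell whether the libraries of a group are separate cultures, so the tests below measure the spread between these libraries, which could be technical. In such whole-culture RNA, a smaller number of expressing cells and less RNA per cell cannot be told apart.

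TGF-beta is secreted in a latent complex and must be released before it can bind. The freed dimer is held by TGFBR2, which recruits and phosphorylates TGFBR1, and TGFBR1 in turn phosphorylates SMAD2 and SMAD3, which enter the nucleus with SMAD4 and switch on target genes. Among those targets are the pathway's own brakes, so SMAD7, SKIL and PMEPA1 are widely used as readouts of signalling. In carcinoma cells the pathway is known for growth arrest and for matrix production and the shift to a mesenchymal state.

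Depth, the level of S100A9 and cell type markers were read first. Total counts ran from 17.4 M to 27.1 M in H1650 and from 18.2 M to 21.7 M in PC9. Levels are given as CPM, the count of a gene per 1 M of its library's total over the tested genes, adjusted by TMM scaling. S100A9 lay between 199 and 217 CPM in BrM, 292 and 336 CPM in Tr-BrM control and 88.2 and 105 CPM under S100A9-inh in H1650. In the same groups of PC9 it lay between 119 and 127, 738 and 759, and 30.4 and 35.5 CPM. It was thus lowest under S100A9-inh in both lines, though the labels do not say that the inhibition acts on its RNA. Replicate 1 of PC9 Tr-BrM S100A9-inh stood apart from its group, with a chi-square per degree of freedom of 5.94 and 5.37 against the other two, which were at 2.0 with each other. Epithelial markers had a summed level of 9351 to 11225 CPM in H1650 and 20416 to 27052 CPM in PC9. All 7 fibroblast markers had counts in every H1650 group, with sums of 23.7 to 24.2 CPM in BrM, 160.3 to 181 CPM in Tr-BrM control and 183 to 191 CPM under S100A9-inh, most of it from COL3A1 (13.4, 129 and 144 CPM). In PC9 the sums were 26.7 to 27.2, 12.8 to 15.1 and 17.3 to 20.1 CPM, with DCN, LUM and PDGFRA at 0 in both control groups. Astrocyte markers summed to 35.1 to 43.1, 267 to 276 and 211 to 223 CPM in H1650, and to 15.5 to 16.6, 97.7 to 103 and 34.2 to 37.7 CPM in PC9, where S100B was at 0 in all groups and AQP4 and GJA1 in both Tr-BrM groups. Microglial and myeloid markers summed to 88.1 to 91.1, 91.9 to 98.0 and 106 to 109.8 CPM in H1650, mostly from CSF1R (85.9, 77.5 and 96.02 CPM). Of the 5 tested there CSF1R fell in Tr-BrM and 4 rose, with a median of 2.23, among them PTPRC from 1.33 to 6.25 CPM and TYROBP from 1.281 to 6.77 CPM. In PC9 the sums were 31.0 to 31.7, 12.02 to 13.9 and 18.8 to 21.5 CPM, with TYROBP at 0 in all groups. Endothelial markers summed to 2.12 to 5.19, 6.90 to 8.63 and 7.44 to 12.4 CPM in H1650 and to 22.9 to 26.6, 40.3 to 41.2 and 23.5 to 28.2 CPM in PC9, and platelet markers to at most 12.3 CPM. These marker sums move with the groups, and their part in the results below was not tested.

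In Tr-BrM against BrM controls the pathway genes went mostly up in H1650 and mostly down in PC9. In H1650, 6 of the 10 rose (TGFBR1, SMAD3, SMAD7, SKIL, PMEPA1 and LTBP2), 3 fell (TGFB1, TGFBR2 and TGFBI) and TGFB2 was not called, while 32.2% of all 17937 tested genes rose and 31.7% fell. In PC9, 9 fell and TGFBR2 rose, against 30.3% of all 16169 tested genes that fell and 29.6% that rose. The median log2 fold change of the 10 genes was 0.32 in H1650 and -0.76 in PC9, where that of all genes was -0.001 and 0.001. A gene is called here, or said to have risen or fallen, at an adjusted p under 0.05 in edgeR's quasi-likelihood test, and changes are log2 fold changes ± SE with 3 libraries against 3. The 3 libraries of each group did not overlap for 9 of the 10 genes in H1650 and for all 10 in PC9. The share of all genes without overlap was not counted, so no meaning is drawn from these counts.

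S100A9-inh against the Tr-BrM control raised 9 of the 10 genes in H1650 and lowered SMAD3, where 15.4% of all genes rose and 13.8% fell, with a median change of 0.47 for the 10 and -0.001 for all genes. PC9 was split: TGFB1, LTBP2, TGFBR1 and TGFBI rose, TGFB2, TGFBR2, SMAD3, SMAD7 and SKIL fell, and PMEPA1 was not called, beside 26.3% of all genes higher and 26.1% lower. In that comparison the libraries of PC9 did not overlap for 7 of the 10 genes, and those of H1650 for all 10. For all genes this was again not counted. Against the BrM controls, 8 genes were higher and TGFBR2 and TGFBI lower under S100A9-inh in H1650 (all genes, 32.5% higher and 31.2% lower), and all 10 were lower in PC9 (all genes, 22.7% higher and 23.6% lower). The 3 comparisons of a line share libraries, so they are not independent of each other.

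The lines were compared in 1 model of all 18 libraries, which tests the change in PC9 minus the change in H1650. For Tr-BrM against BrM all 10 genes differed between the lines, 8 with a lower and 2 (TGFBR2 and TGFBI) with a higher change in PC9, next to 26.8% and 27.8% of all 19076 tested genes. The difference of TGFB2 (-0.29 ± 0.108, adjusted p = 0.0236) was not called with DESeq2 (adjusted p = 0.0504) or without any 1 of 6 libraries. For S100A9-inh against Tr-BrM control, 6 genes had a lower change in PC9, TGFBI a higher one, and TGFB1, SMAD3 and LTBP2 were not called, next to 19.7% and 20.7% of all genes.

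**Figure D1:**
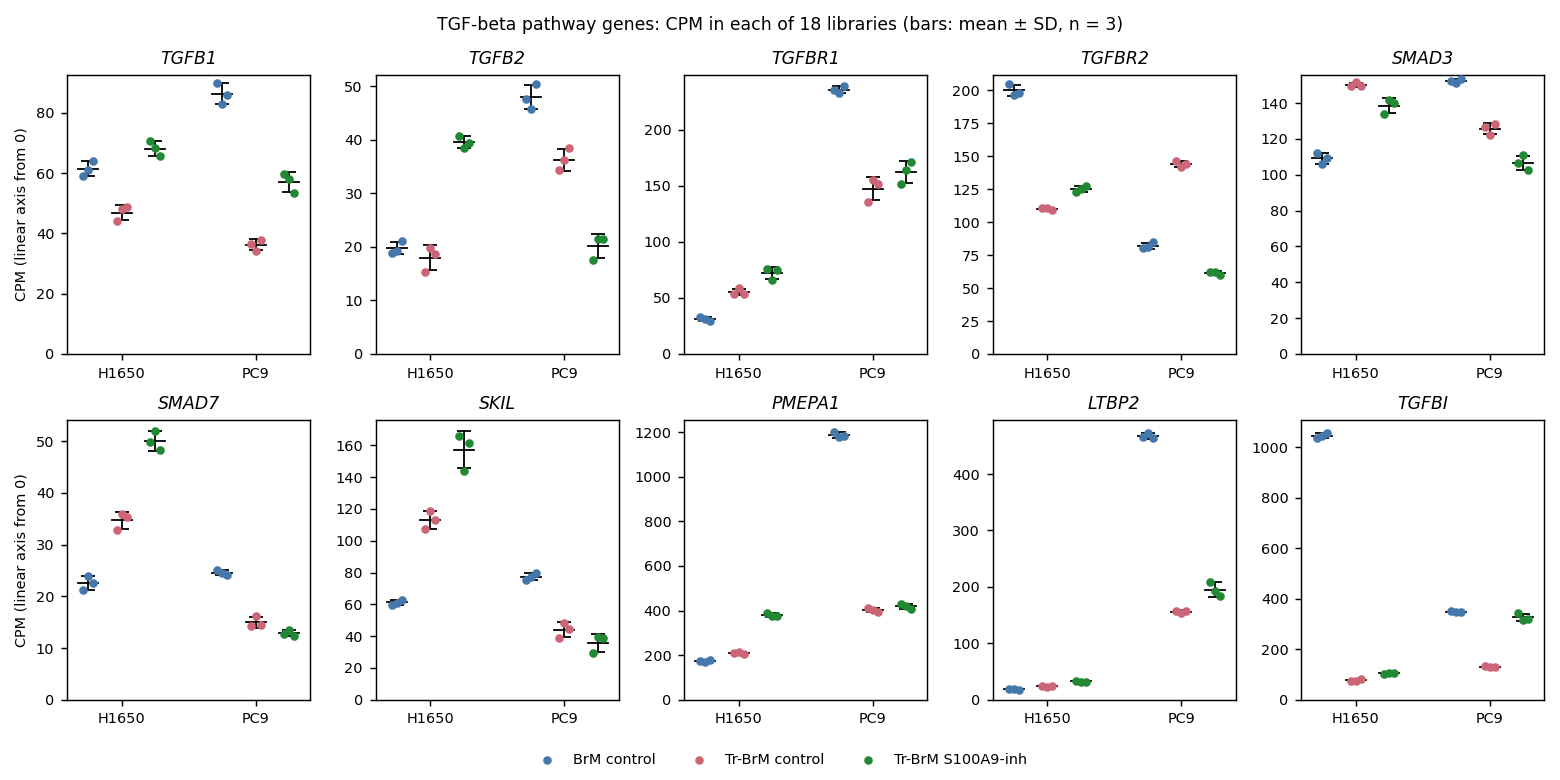
Each panel plots the CPM of a pathway gene on a linear axis from 0 in the 18 libraries, with BrM control in blue, Tr-BrM control in red and Tr-BrM S100A9-inh in green; bars give the mean ± SD of 3 libraries. In PC9 the blue points are the highest for 9 of the 10 genes, while in H1650 the green points are the highest for 7 of them.

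**Figure D2:**
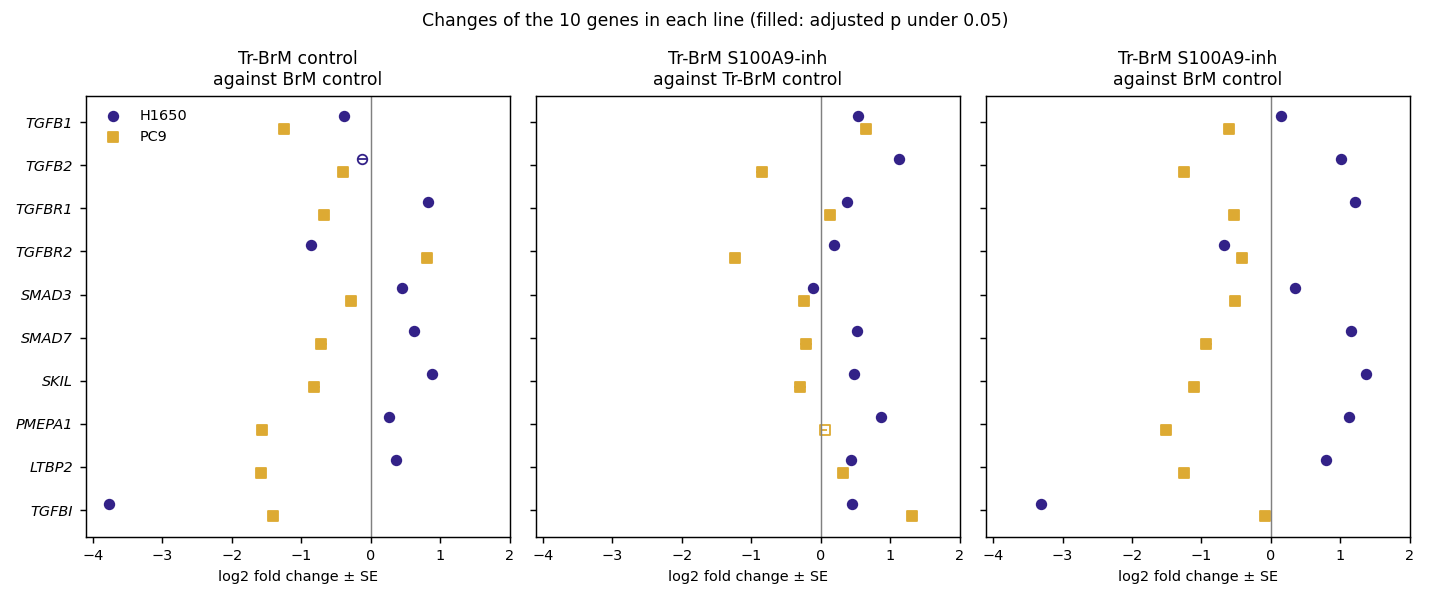
Log2 fold changes ± SE of the 10 genes in the 3 comparisons of each line, with circles for H1650 and squares for PC9; filled symbols passed an adjusted p of 0.05 and most SE bars are shorter than the symbol. Circles and squares lie on opposite sides of 0 for 7 genes that were called in both lines in Tr-BrM against BrM controls. The share of all genes called in opposite directions was not counted, so no meaning is drawn from this number.

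The gene of the main TGF-beta ligand, TGFB1 (ENSG00000105329, chromosome 19, 41301587 to 41353911, reverse strand, GRCh38), was lowest in Tr-BrM control in either line. Its libraries held 59.2, 61.1 and 64.1 CPM in H1650 BrM, 43.9, 48.00 and 48.7 CPM in Tr-BrM control and 70.5, 68.2 and 65.7 CPM under S100A9-inh. Those of PC9 held 89.9, 83.04 and 85.9, then 36.5, 34.3 and 37.9, then 59.6, 58.00 and 53.3 CPM. The lowest libraries of both lines were thus those of Tr-BrM control, and no 2 groups of a line overlapped. TGFB1 fell by 0.38 ± 0.0488 in H1650 (adjusted p = 7.01e-08) and by 1.25 ± 0.0574 in PC9 (adjusted p = 5.94e-18), and rose under S100A9-inh by 0.54 ± 0.0471 (adjusted p = 4.95e-10) and 0.65 ± 0.0591 (adjusted p = 9.54e-11). The rise under S100A9-inh did not pass a test of the difference between the lines (0.12 ± 0.0781, adjusted p = 0.231). S100A9-inh against BrM was 0.15 ± 0.0462 in H1650, a call lost without BrM replicate 1 (0.12, adjusted p = 0.0541), and -0.60 ± 0.0546 in PC9.

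TGFB2 (ENSG00000092969, chromosome 1, 218346235 to 218444619, forward strand), which encodes another ligand that needs the co-receptor TGFBR3 for strong binding, moved in opposite directions under S100A9-inh. H1650 libraries held 18.9, 19.3 and 21.1 CPM in BrM, 15.4, 19.9 and 18.7 CPM in Tr-BrM control and 40.7, 38.5 and 39.5 CPM under S100A9-inh, the last group clear of both others. In PC9 its level stepped down over the groups, from 47.7, 45.9 and 50.5 CPM through 34.3, 36.2 and 38.5 to 17.5, 21.5 and 21.4 CPM. Under S100A9-inh TGFB2 rose by 1.13 ± 0.0695 in H1650 (adjusted p = 3.28e-13) and fell by 0.85 ± 0.0760 in PC9 (adjusted p = 7.31e-11), and the difference between the lines was -1.97 ± 0.107 (adjusted p = 1.07e-18). In H1650 Tr-BrM against BrM it was not called (-0.12 ± 0.0781, adjusted p = 0.190) until Tr-BrM control replicate 2 was left out (-0.20, adjusted p = 0.0429), whereas in PC9 it fell by 0.40 ± 0.0691 (adjusted p = 8.77e-06).

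LTBP2 (ENSG00000119681, chromosome 14, 74498170 to 74612378, reverse strand) is a matrix glycoprotein of the latent TGF-beta binding protein family that, unlike its relatives, is not known to hold TGF-beta itself. It was scarce in H1650, where libraries held 19.2, 19.5 and 17.03, then 24.3, 23.2 and 24.7, then 33.2, 31.6 and 32.3 CPM in the order BrM, Tr-BrM control and S100A9-inh. PC9 libraries held 466, 472 and 463, 158, 153 and 157 and 209, 193 and 184 CPM in the same order. The lines therefore ran in opposite directions from BrM to Tr-BrM and in the same direction from Tr-BrM control to S100A9-inh. LTBP2 rose by 0.37 ± 0.0662 in H1650 (adjusted p = 1.97e-05) and fell by 1.58 ± 0.0412 in PC9 (adjusted p = 3.48e-24) from BrM to Tr-BrM control. Under S100A9-inh it rose by 0.43 ± 0.0597 (adjusted p = 1.88e-06) and 0.33 ± 0.0417 (adjusted p = 9.75e-08).

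From BrM to Tr-BrM control the receptor genes moved against each other within each line. TGFBR1 (ENSG00000106799, chromosome 9, 99104038 to 99154192, forward strand), the kinase that phosphorylates SMAD2 and SMAD3, had 32.8, 30.97 and 29.6 CPM in H1650 BrM, 53.6, 58.7 and 53.7 CPM in Tr-BrM control and 75.5, 66.2 and 75.3 CPM under S100A9-inh. TGFBR2 (ENSG00000163513, chromosome 3, 30606502 to 30694142, forward strand), the ligand-binding kinase, had 205, 197 and 198, then 111, 110.4 and 109, then 123, 125 and 127 CPM in the same groups. From BrM to Tr-BrM control of H1650, TGFBR1 rose by 0.83 ± 0.0585 (adjusted p = 3.96e-13) and TGFBR2 fell by 0.86 ± 0.0332 (adjusted p = 3.51e-19). In PC9 the roles were exchanged. TGFBR1 had 236, 233 and 239 CPM in BrM, 136, 155 and 152 CPM in Tr-BrM control and 152, 164 and 172 CPM under S100A9-inh, and TGFBR2 had 80.7, 81.1 and 84.8, 147, 142 and 144 and 62.04, 62.5 and 59.8 CPM. TGFBR1 fell by 0.68 ± 0.0468 (adjusted p = 1.25e-13) and TGFBR2 rose by 0.81 ± 0.0443 (adjusted p = 4.58e-16), the one pathway gene of the 10 that rose in PC9 Tr-BrM. The difference between the lines was -1.51 ± 0.0783 for TGFBR1 (adjusted p = 4.12e-20) and 1.67 ± 0.0540 for TGFBR2 (adjusted p = 5.37e-27).

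Under S100A9-inh TGFBR2 fell by 1.23 ± 0.0456 in PC9 (adjusted p = 6.63e-20) to a level below all BrM libraries, and rose by 0.18 ± 0.0337 in H1650 (adjusted p = 9.86e-05), where it stayed below them. TGFBR1 rose by 0.38 ± 0.0514 in H1650 (adjusted p = 1.04e-06). Its rise of 0.14 ± 0.0474 in PC9 (adjusted p = 0.0146) came from overlapping libraries and was lost without Tr-BrM control replicate 1 (0.08, adjusted p = 0.18) or S100A9-inh replicate 3 (0.10, adjusted p = 0.116).

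Of the signal carriers, SMAD3 (ENSG00000166949, chromosome 15, 67063763 to 67195195, forward strand) changed least among the 10 genes in H1650 under S100A9-inh and in PC9 Tr-BrM. Its H1650 libraries held 112, 106 and 109 CPM in BrM, 149, 152 and 149 CPM in Tr-BrM control and 134, 142 and 140.0 CPM under S100A9-inh. PC9 libraries held 153, 152 and 153, 126, 122 and 129 and 106, 111 and 103 CPM, a step down at each group with no overlap. SMAD3 rose by 0.46 ± 0.0355 in H1650 Tr-BrM (adjusted p = 3.44e-12) and fell by 0.28 ± 0.0420 in PC9 (adjusted p = 1.21e-06). Under S100A9-inh it fell by 0.24 ± 0.0429 in PC9 (adjusted p = 2.73e-05) and by 0.12 ± 0.0342 in H1650 (adjusted p = 0.0103), the latter not called without S100A9-inh replicate 1 (-0.09, adjusted p = 0.0783).

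SMAD7, SKIL and PMEPA1 act as brakes and are also targets of the pathway. SMAD7 (ENSG00000101665, chromosome 18, 48919853 to 48952052, reverse strand) blocks the receptors, SKIL (ENSG00000136603, chromosome 3, 170357678 to 170396835, forward strand) encodes SnoN, which holds SMAD complexes in a repressed state, and PMEPA1 (ENSG00000124225, chromosome 20, 57648392 to 57711536, reverse strand) encodes a membrane protein that binds SMAD2 and SMAD3 and keeps them from the receptor. All 3 rose in H1650 and fell in PC9 from BrM to Tr-BrM control, and a stretch of sequence in front of a RefSeq start (GRCh38.p14) is shown for each, on the gene's strand, 5′ to 3′. Capitals mark the SMAD box, the letters CAGAC or their complement GTCTG. None of these 3 stretches touches an annotated exon. That of SKIL (chr3:170357548-170357672, forward strand) ends just before the gene's first base, and those of SMAD7 (chr18:48949462-48949583, reverse strand) and PMEPA1 (chr20:57690693-57690817, reverse strand) lie in introns in front of starts within the gene.
SKIL: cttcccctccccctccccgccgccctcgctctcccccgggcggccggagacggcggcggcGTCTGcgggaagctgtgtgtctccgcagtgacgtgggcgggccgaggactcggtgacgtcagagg
SMAD7: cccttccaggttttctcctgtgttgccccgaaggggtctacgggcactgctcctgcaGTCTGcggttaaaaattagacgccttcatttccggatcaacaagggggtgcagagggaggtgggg
PMEPA1: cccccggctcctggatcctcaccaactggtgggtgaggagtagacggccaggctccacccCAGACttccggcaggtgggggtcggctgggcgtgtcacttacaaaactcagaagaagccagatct
The SMAD box was found on either strand in the 250 bases before the start in 12 of 27 start windows of the 10 genes, belonging to 6 of the genes, and in 38.0% of all 35116 such windows. TGANTCA, the letters of an AP-1 site, was found in 1 of the 27 (SMAD3) and in 6.57% of all windows. Letters this short occur in many windows, and a match is not a binding site.

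SMAD7 libraries held 21.2, 24.01 and 22.5 CPM in H1650 BrM, 32.8, 35.9 and 35.4 CPM in Tr-BrM control and 49.9, 52.1 and 48.2 CPM under S100A9-inh. The level stepped up at each group. SKIL did likewise, with 59.8, 60.7 and 62.9, then 107, 119 and 113, then 166, 144 and 162 CPM. PMEPA1 had 172, 172 and 178 CPM in BrM, 208, 213 and 204 CPM in Tr-BrM control and 389, 374 and 377 CPM under S100A9-inh, so that most of its change came with S100A9-inh. From BrM to Tr-BrM control the brakes rose by 0.62 ± 0.0610, 0.89 ± 0.0493 and 0.26 ± 0.0325 for SMAD7, SKIL and PMEPA1 (adjusted p = 5.00e-10, 1.68e-15 and 4.16e-08). Under S100A9-inh they rose by a further 0.53 ± 0.0535, 0.47 ± 0.0443 and 0.87 ± 0.0312 (adjusted p = 8.62e-09, 1.65e-09 and 4.37e-18). Only 4% of all tested genes changed as much as PMEPA1 in this comparison of H1650.

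In PC9 the same brakes were highest in BrM. SMAD7 had 25.1, 24.4 and 24.1 CPM there, 14.3, 16.2 and 14.4 CPM in Tr-BrM control and 12.7, 13.5 and 12.4 CPM under S100A9-inh. SKIL had 75.1, 77.1 and 79.6, 39.1, 48.6 and 44.5 and 29.3, 39.6 and 38.8 CPM, where the last pair of groups overlapped. PMEPA1 had 1202, 1180.3 and 1181 CPM in BrM, 412, 403 and 393 CPM in Tr-BrM control and 427, 422 and 406 CPM under S100A9-inh. Per length of all its annotated exons, PMEPA1 was the highest of the 10 genes in each PC9 group. From BrM to Tr-BrM control SMAD7 fell by 0.71 ± 0.0809, SKIL fell by 0.81 ± 0.0766 and PMEPA1 fell by 1.56 ± 0.0340 (adjusted p = 6.50e-09, 1.48e-10 and 3.16e-26). S100A9-inh left PMEPA1 uncalled (0.06 ± 0.0339, adjusted p = 0.172) and SKIL fell by 0.30 ± 0.0819 (adjusted p = 0.00294). The change of SMAD7, -0.22 ± 0.0876 (adjusted p = 0.0377), was not called without Tr-BrM control replicate 2 (-0.16), S100A9-inh replicate 1 (-0.21) or S100A9-inh replicate 3 (-0.19), nor with DESeq2 (-0.22, adjusted p = 0.0919). The change under S100A9-inh differed between the lines for all 3 brakes, by -0.74 ± 0.101, -0.77 ± 0.0983 and -0.81 ± 0.0476 in the order above.

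TGFBI (ENSG00000120708, chromosome 5, 136028895 to 136063818, forward strand), a secreted matrix protein named for its induction by TGF-beta, showed the largest single change of the 10 genes. Its libraries held 1037, 1044 and 1057 CPM in H1650 BrM, 75.9, 74.6 and 81.3 CPM in Tr-BrM control and 104, 107 and 107 CPM under S100A9-inh. Those of PC9 held 349.8, 348 and 346, then 135, 130.1 and 129, then 342, 317 and 321 CPM. BrM and Tr-BrM control were far apart in both lines, and S100A9-inh brought the level back near that of BrM in PC9 and not in H1650. TGFBI fell by 3.76 ± 0.0356 in H1650 (adjusted p = 4.17e-33), a size reached by 2.300% of all tested genes, and by 1.40 ± 0.0392 in PC9 (adjusted p = 2.25e-23). Under S100A9-inh it rose by 0.46 ± 0.0367 (adjusted p = 8.43e-11) and 1.31 ± 0.0393 (adjusted p = 2.99e-22), a difference between the lines of 0.86 ± 0.0547 (adjusted p = 1.53e-16). S100A9-inh against BrM in PC9 was -0.09 ± 0.0373 (adjusted p = 0.0470), a call that leaving out 1 library ended in 7 of 9 cases.

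Levels can be set beside each other only per length, as CPM per kilobase of exon, and the lines were scaled separately. The length is that of all annotated exons of a gene joined, which can exceed that of the transcripts expressed. The order of genes depends on this choice, and other lengths were not tried. In H1650 BrM the order was TGFBI (134 ± 1.31), TGFBR2 (42.5 ± 0.905), PMEPA1 (30.9 ± 0.644), TGFB1 (18.97 ± 0.761), SMAD3 (11.99 ± 0.331) and SKIL (7.86 ± 0.205), followed by TGFBR1 (4.55 ± 0.236) and SMAD7 (4.49 ± 0.277), whose ranges overlap, TGFB2 (3.84 ± 0.223) and LTBP2 (2.04 ± 0.145). In PC9 BrM it was PMEPA1 (211 ± 2.12), LTBP2 (51.4 ± 0.530), TGFBI (44.5 ± 0.238), TGFBR1 (34.5 ± 0.427), TGFB1 (26.6 ± 1.06), TGFBR2 (17.5 ± 0.476), SMAD3 (16.7 ± 0.104), SKIL (9.93 ± 0.285), TGFB2 (9.32 ± 0.451) and SMAD7 (4.88 ± 0.0922). The ranges of SKIL and TGFB2 overlapped there. In the Tr-BrM controls PMEPA1 led both lines, with 37.1 ± 0.818 in H1650 and 71.7 ± 1.64 in PC9. TGFBR2 stood above TGFBR1 per length in every group of H1650, while in PC9 that order held in Tr-BrM control only (30.7 ± 0.509 against 21.6 ± 1.49).

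The remaining pathway genes were read from lists by role, and several counts below lie near the shares of all genes. In Tr-BrM against BrM controls 32.2% of all tested genes rose and 31.7% fell in H1650, and 29.6% rose and 30.3% fell in PC9. Under S100A9-inh the shares were 15.4% and 13.8% in H1650, and 26.3% and 26.1% in PC9. Among 7 tested ligands of the TGF-beta and activin arm in H1650, 2 rose and 1 fell in Tr-BrM against BrM controls, and 4 rose and 1 fell under S100A9-inh, with list medians of 0.02 and 0.19. Of 6 in PC9, 3 rose and 1 fell, and then 2 rose and 3 fell, with medians of 0.37 and -0.13. In H1650 the count that fell in Tr-BrM was 2 without BrM replicate 1 or Tr-BrM control replicate 3, and that under S100A9-inh was 0 without Tr-BrM control replicate 1 or 3 or S100A9-inh replicate 1. INHBA, the activin A subunit, had 94.7 ± 2.095 CPM in PC9 BrM, 215 ± 2.499 CPM in Tr-BrM control and 89.2 ± 3.35 CPM under S100A9-inh, with changes of 1.18 ± 0.0421 and -1.27 ± 0.0423. H1650 held much less of it, 3.31 ± 0.666 CPM in Tr-BrM control and 6.51 ± 0.724 CPM under S100A9-inh, where it rose by 0.96 ± 0.146 (adjusted p = 7.33e-06). INHBB, the activin B subunit, rose in Tr-BrM in both lines, by 2.19 ± 0.148 and 0.46 ± 0.0432. TGFB3, the remaining TGF-beta isoform, was low, at 6.43 ± 1.16, 4.52 ± 0.271 and 7.14 ± 0.383 CPM in the groups of H1650 and under 2 CPM in PC9. GDF11, an activin-like ligand, fell in PC9 Tr-BrM (-1.28 ± 0.0928) and rose by 0.83 ± 0.0962 under S100A9-inh, and the stress-induced GDF15 rose by 1.26 ± 0.120 under S100A9-inh there.

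Of the genes that store and release the latent complex, 7 of 13 tested rose and 5 fell in H1650 Tr-BrM (median 0.34), and 2 of 10 rose and 6 fell in PC9 (median -0.49). Under S100A9-inh 4 rose and 6 fell in H1650 (median -0.09) and 4 rose and 3 fell in PC9 (median 0.01). Over all genes, 32.2% rose and 31.7% fell in H1650 Tr-BrM, and 29.6% and 30.3% in PC9. Under S100A9-inh these shares were 15.4% and 13.8% in H1650, and 26.3% and 26.1% in PC9. The count that fell in H1650 under S100A9-inh was 3 without S100A9-inh replicate 1. ITGB6, the integrin chain that frees TGF-beta on epithelia, stood at 12.5 ± 1.603, 12.4 ± 0.949 and 32.6 ± 1.86 CPM in the H1650 groups and at 54.9 ± 2.51, 11.8 ± 0.385 and 20.01 ± 1.46 CPM in the PC9 groups. It rose under S100A9-inh by 1.39 ± 0.0786 and 0.76 ± 0.0822 and fell in PC9 Tr-BrM by 2.22 ± 0.0745. ITGB8, the other releasing integrin chain, fell by 0.30 ± 0.0432 in H1650 Tr-BrM and rose by 0.68 ± 0.0854 in PC9, then rose by 0.37 ± 0.0422 and fell by 1.47 ± 0.0926 under S100A9-inh. FURIN, which cuts the ligand precursor, fell by 0.27 ± 0.0325 and 1.63 ± 0.0452 in Tr-BrM. LTBP1, a carrier that binds the latent ligand, rose by 0.34 ± 0.0530 in H1650 Tr-BrM and fell by 1.14 ± 0.0739 in PC9. The fibrillins, which anchor LTBPs in the matrix, were exchanged in H1650: FBN1 went from 80.1 ± 1.31 to 8.35 ± 0.614 CPM (-3.27 ± 0.0720) and FBN2 from 0.565 ± 0.262 to 42.4 ± 2.11 CPM (6.24 ± 0.135). In PC9 FBN1 rose by 1.05 ± 0.136 and FBN2 was at 1.41 ± 0.151 CPM in BrM and lower in Tr-BrM. BGN, a proteoglycan that can bind TGF-beta, rose by 5.23 ± 0.0971 in H1650 Tr-BrM to 62.9 ± 2.39 CPM, in the group in which the fibroblast marker sum also rose.

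Among the other receptors and co-receptors, 4 of 10 rose and 2 fell in H1650 Tr-BrM and 2 of 8 rose and 4 fell in PC9, with medians of 0.19 and -0.22. Under S100A9-inh 3 rose and 2 fell in H1650 (median 0.07), and 1 rose and 3 fell in PC9 (median -0.05). Of all genes, 32.2% rose and 31.7% fell in H1650 Tr-BrM, and 29.6% and 30.3% in PC9. Under S100A9-inh it was 15.4% and 13.8% of all genes in H1650, and 26.3% and 26.1% in PC9. The count that rose in PC9 Tr-BrM was 1 without BrM replicate 1 or 3 or Tr-BrM control replicate 1 or 3. BAMBI, a decoy receptor that is itself a target, rose by 2.49 ± 0.0421 in H1650 Tr-BrM, to 169.7 ± 4.51 CPM, and fell by 0.30 ± 0.1000 in PC9 (adjusted p = 0.0106), the latter not called without Tr-BrM control replicate 2 (-0.23, adjusted p = 0.0768). ENG, the co-receptor endoglin, fell in Tr-BrM in H1650 (-1.20 ± 0.0490) and PC9 (-0.34 ± 0.0693). The activin receptor ACVR1B rose by 0.30 ± 0.0518 in H1650 Tr-BrM and fell by 0.76 ± 0.0696 in PC9, while ACVR2B rose in both, by 0.85 ± 0.107 and 1.02 ± 0.101. ACVR1 fell by 0.55 ± 0.0782 in H1650 Tr-BrM and was not called in PC9 (adjusted p = 0.463). Under S100A9-inh TGFBR3, which presents TGFB2 to TGFBR2, fell by 0.27 ± 0.0640 in H1650 and by 0.84 ± 0.141 in PC9. FKBP1A, which guards the type I receptor against activation without ligand, rose by 0.14 ± 0.0306 and fell by 0.38 ± 0.0387.

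In PC9 Tr-BrM 30.3% of all genes fell and 29.6% rose. SMADs and their partners were mostly lower there, where 7 of 10 tested fell and 0 rose (median -0.48) in edgeR's test. At an unadjusted p under 0.05 the count that rose was 0 too, as it was with DESeq2, while it was 1 with upper quartile scaling or without BrM replicate 3. In H1650 4 of 11 rose and 5 fell (median 0.01), beside 32.2% and 31.7% of all genes. SMAD4, the shared partner of all receptor SMADs, rose by 0.29 ± 0.0649 in H1650 Tr-BrM and fell by 0.74 ± 0.0732 in PC9. SMAD2 fell in both, by 0.17 ± 0.0379 and 0.40 ± 0.0476, as did the brake SMAD6, by 1.11 ± 0.0529 and 0.78 ± 0.0967. The partner factors RUNX2, SP1 and EP300 rose in H1650 by 1.13 ± 0.105, 0.37 ± 0.0409 and 0.14 ± 0.0371 and fell in PC9 by 1.02 ± 0.142, 0.55 ± 0.0442 and 0.18 ± 0.0402. RUNX1 fell by 0.20 ± 0.0404 and 0.71 ± 0.0560, and the coactivator CREBBP fell in H1650 by 0.89 ± 0.0406. Over all genes, S100A9-inh raised 15.4% and lowered 13.8% in H1650, and raised 26.3% and lowered 26.1% in PC9. Of this list it raised 3 of 11 and lowered SP1 in H1650 (median -0.02), and raised 5 of 10 and lowered SMAD6 in PC9 (median 0.08). In PC9 the count raised was 3 without BrM replicate 1 or 3, Tr-BrM control replicate 2 or 3 or S100A9-inh replicate 3. The count lowered there was 0 without Tr-BrM control replicate 1 and 2 without S100A9-inh replicate 2, and that in H1650 was 2 without Tr-BrM control replicate 3.

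The list of brakes and corepressors split between the lines under S100A9-inh: 10 of 17 rose and 1 fell in H1650 (median 0.17), and 2 rose and 11 of 17 fell in PC9 (median -0.30). Of all genes, 15.4% rose and 13.8% fell in H1650, and 26.3% rose and 26.1% fell in PC9. FSTL3, an activin trap, rose by 0.56 ± 0.0339 in H1650 and fell by 0.57 ± 0.0482 in PC9. NOG, which traps BMPs, rose by 0.70 ± 0.0909 and fell by 0.46 ± 0.0632, and the ubiquitin ligase NEDD4L, which removes SMADs, rose by 0.31 ± 0.0320 and fell by 0.58 ± 0.0456. FSTL1 rose by 0.19 ± 0.0293 and fell by 1.15 ± 0.0728, and STRAP rose by 0.23 ± 0.0318 and fell by 0.16 ± 0.0352. The list also holds USP15 and USP4, deubiquitinases known to stabilise the receptors; USP15 rose in H1650 by 0.18 ± 0.0471 and USP4 was the gene that fell. The call of USP15 was lost without Tr-BrM control replicate 3 (0.13, adjusted p = 0.0581), and that of USP4 without any 1 of the Tr-BrM control libraries or S100A9-inh replicate 1 or 3. Without Tr-BrM control replicate 3 the count that rose in PC9 was 1. In Tr-BrM against BrM controls 7 rose and 5 fell in H1650 (median 0.07) and 6 rose and 7 fell in PC9 (median -0.08), where 4 fell without BrM replicate 3. Over all genes 32.2% rose and 31.7% fell in H1650, and 29.6% and 30.3% in PC9. FST, the activin trap follistatin, rose by 3.60 ± 0.109 in H1650 to 23.6 ± 1.67 CPM and was under 2 CPM in PC9. SMURF1, a ligase that targets receptors through SMAD7, fell by 0.72 ± 0.0476 in H1650 and rose by 0.26 ± 0.0472 in PC9.

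Other response genes rose more often than they fell under S100A9-inh in H1650 and were evenly divided in PC9, and from BrM to Tr-BrM control more of them fell than rose in either line. Under S100A9-inh 25 of 41 tested rose and 2 fell in H1650, with a median of 0.35, whereas 15 of 38 rose and 15 fell in PC9, with a median of 0.08. From BrM to Tr-BrM control 15 of 41 rose and 23 fell in H1650 (median -0.27), and 3 of 38 rose and 26 fell in PC9 (median -0.40). S100A9-inh against BrM gave 19 higher and 16 lower in H1650 (median 0.03) and 5 higher and 22 lower in PC9 (median -0.50). Over all genes, S100A9-inh against Tr-BrM control gave 15.4% higher and 13.8% lower in H1650, and 26.3% and 26.1% in PC9. Tr-BrM against BrM controls gave 32.2% and 31.7% of all genes in H1650, and 29.6% and 30.3% in PC9. For S100A9-inh against BrM these shares were 32.5% and 31.2% in H1650, and 22.7% and 23.6% in PC9. The count of genes that fell under S100A9-inh in H1650 was 1 without BrM replicate 2, BrM replicate 3 or Tr-BrM control replicate 2, and the count that rose in PC9 Tr-BrM was 5 without S100A9-inh replicate 1. COL1A1 of this list is also a fibroblast marker.

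The named response genes include several of the matrix. FN1, fibronectin, had 825 ± 18.2, 2957 ± 78.5 and 3794 ± 62.1 CPM in the groups of H1650 and 11992 ± 54.1, 450.4 ± 9.88 and 229.8 ± 13.2 CPM in those of PC9. It rose by 1.84 ± 0.0289 and then 0.36 ± 0.0277 in H1650 and fell by 4.73 ± 0.0377 and then 0.97 ± 0.0343 in PC9. CCN2, the growth factor also called CTGF, fell by 3.27 ± 0.0579 in H1650 Tr-BrM and rose by 1.32 ± 0.0660 under S100A9-inh, and its relative CCN1 fell by 1.65 ± 0.0293 and rose by 1.32 ± 0.0291. In PC9 under S100A9-inh CCN2 fell by 0.21 ± 0.0915 (adjusted p = 0.0495) and CCN1 fell by 0.61 ± 0.0460 (adjusted p = 1.91e-12). That call of CCN2 was lost without any 1 of the PC9 libraries except Tr-BrM control replicate 2, with an adjusted p from 0.0539 to 0.126. COL4A2, a basement membrane collagen, fell in Tr-BrM in H1650 (-0.97 ± 0.0343) and PC9 (-1.001 ± 0.0542), then rose by 0.83 ± 0.0340 in H1650 and fell by 1.62 ± 0.0655 in PC9. COL7A1 and COL1A1 rose in H1650 Tr-BrM by 0.64 ± 0.0996 and 1.92 ± 0.129 and fell in PC9 by 1.61 ± 0.0423 and 0.95 ± 0.0864. TPM2, a tropomyosin, fell by 1.74 ± 0.0322 and 1.37 ± 0.164 in Tr-BrM.

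The growth-arrest gene CDKN1A, which encodes p21, rose by 0.49 ± 0.0309 in H1650 Tr-BrM and fell by 2.04 ± 0.0639 in PC9, from 84.6 ± 2.09 to 20.6 ± 1.67 CPM. CDKN2B, which encodes p15, was under 1 CPM in H1650 and fell by 0.87 ± 0.0619 in PC9. Of genes of the mesenchymal state, SNAI2 was low in both lines, rose in H1650 Tr-BrM by 0.94 ± 0.151, fell in PC9 by 0.84 ± 0.208, and rose under S100A9-inh in both, by 0.97 ± 0.118 and 1.41 ± 0.197. CDH2, N-cadherin, had 40.1 ± 1.73 CPM in PC9 BrM, 0 counts in all 3 Tr-BrM control libraries and 3.53 ± 0.501 CPM under S100A9-inh. ADAM19, WNT9A and RHOB rose in H1650 Tr-BrM by 0.85 ± 0.0793, 0.50 ± 0.0496 and 0.65 ± 0.0557 and fell in PC9 (-1.004 ± 0.0614, -0.54 ± 0.0452 and -0.14 ± 0.0521), RHOB not without BrM replicate 1 or 3 or Tr-BrM control replicate 2 or 3 (adjusted p from 0.0517 to 0.11).

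**Figure D3:**
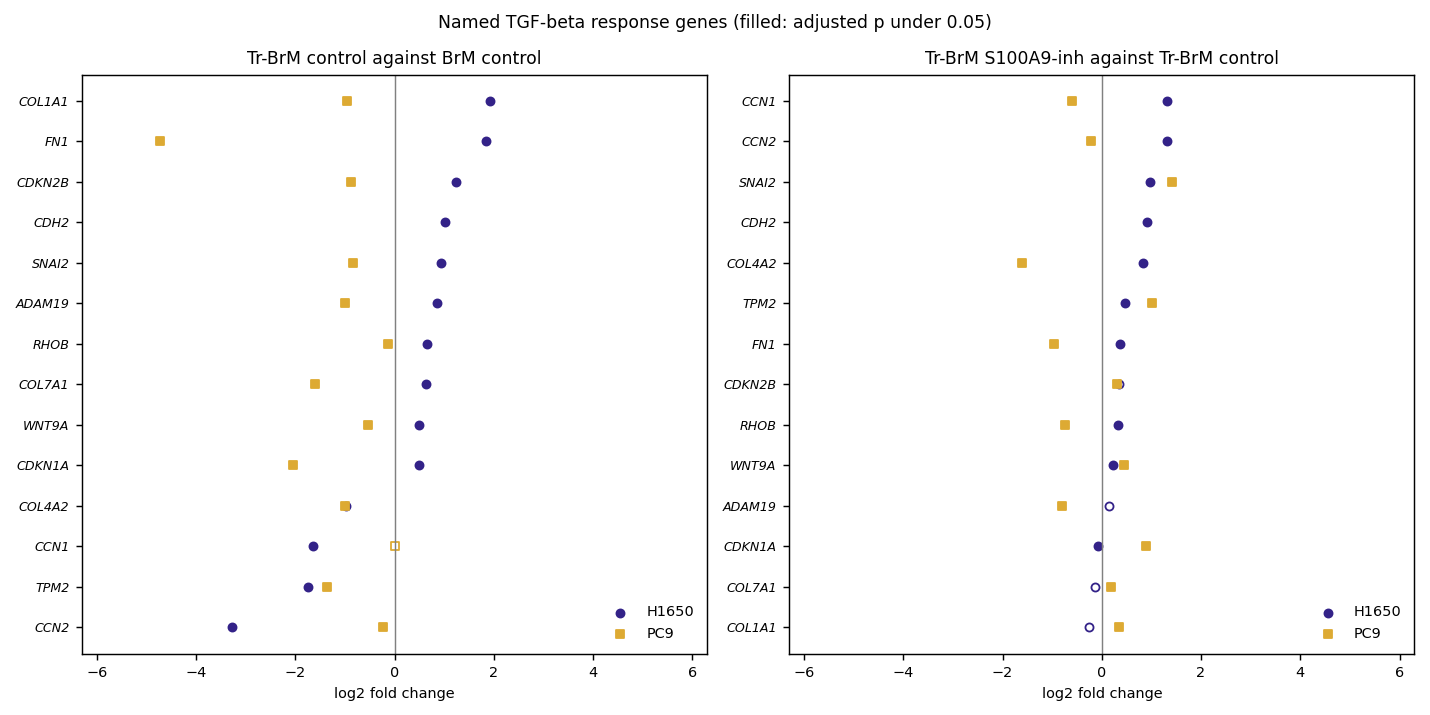
Log2 fold changes of 14 response genes, picked by small p or by opposite calls in the lines, in Tr-BrM against BrM controls and in S100A9-inh against Tr-BrM control, with circles for H1650 and squares for PC9 and filled symbols past an adjusted p of 0.05; CDH2 in PC9 is not drawn because a group has 0 counts. Under S100A9-inh the filled circles lie to the right of 0 in 9 cases and to the left in 1, while the filled squares fall on both sides. Picking by small p favours filled symbols, so no meaning is drawn from these counts. In the whole list 25 of 41 tested genes rose and 2 fell in H1650 under S100A9-inh, beside 15.4% and 13.8% of all genes.

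**Figure D4:**
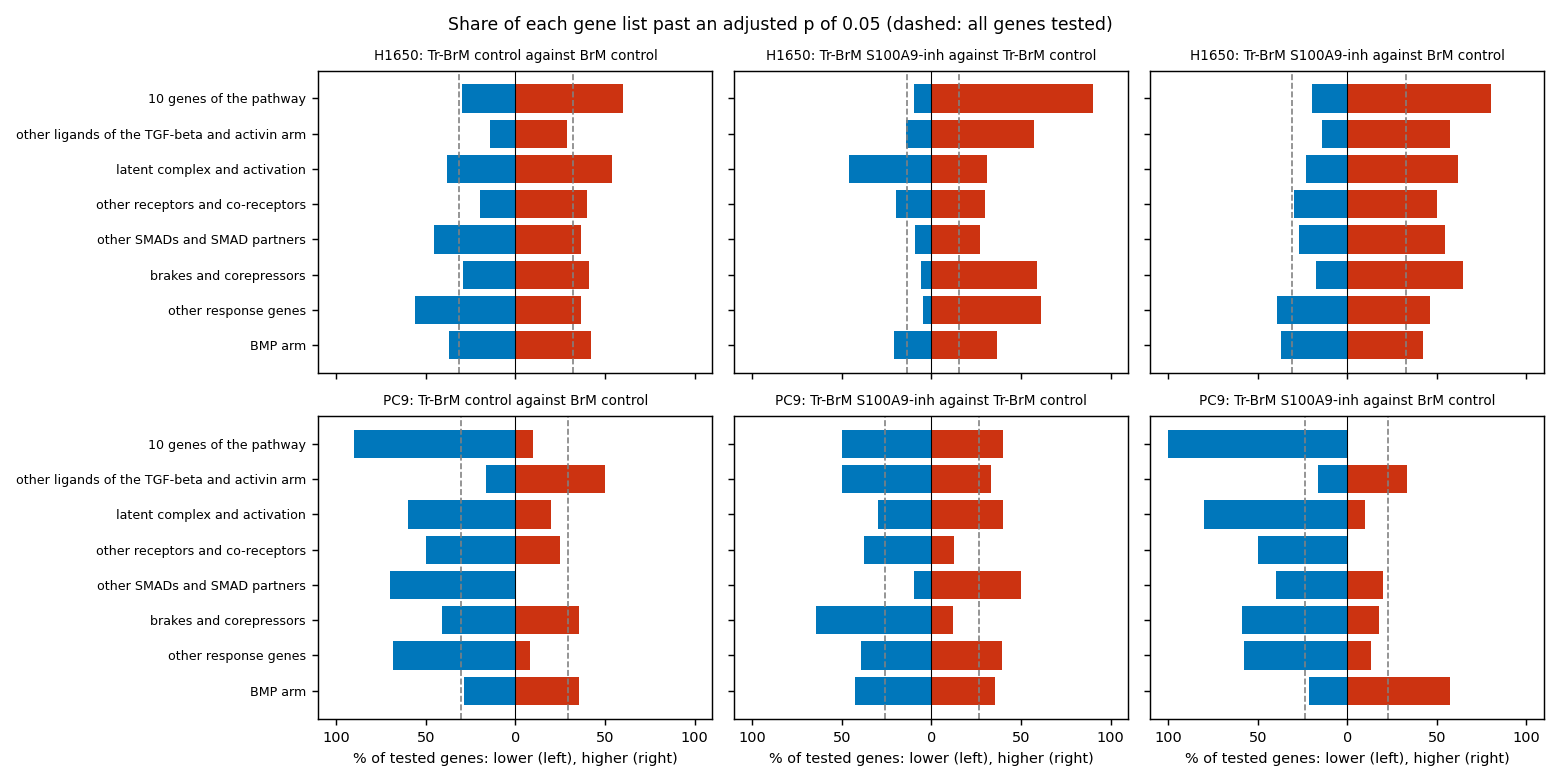
Bars give the percent of tested genes of each list that were higher (red, right) or lower (blue, left) at an adjusted p of 0.05 in each comparison, and dashed lines give that percent over all genes tested. The bars of the 10 genes run past the dashed line on the right in all H1650 panels and on the left in all PC9 panels, and also on the right for S100A9-inh against Tr-BrM control in PC9.

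Genes whose group means ran most like those of each pathway gene were named by the smallest root mean square distance between log2 profiles centred within each line, over 6 groups and 10273 genes, as a description without a test. SKIL lay nearest to SMAD7 (0.101) and PMEPA1 nearest to LTBP2 (0.159), so in these pairs the nearest of all genes was another of the 10. SMAD7 lay nearest to PRSS23 (0.084), and TGFB2 had THBS1, a TGF-beta activating matrix protein, in the third place (0.188). SMAD3 lay nearest to MYH10 (0.018), TGFBR1 to RNF217 (0.043), LTBP2 to VGLL3 (0.054), TGFBI to GRAMD1B (0.096), TGFB1 to PACS1 (0.099) and TGFBR2 to ZNF548 (0.107). The second gene in order lay at 0.031 for SMAD3, 0.081 for TGFBR1, 0.12 for LTBP2, 0.156 for TGFBI, 0.104 for TGFB1 and 0.138 for TGFBR2.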

How the data were processed

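Libraries compatible with TruSeq were made from poly-A RNA of both lines, per the labels' protocols. Raw read counts per gene were deposited by the authors, 1 table per line; STAR, GRCh38, R 4.0.1 and DESeq2 1.28.1 are named in the submitters' processing notes. The sources used here give no counting tool, annotation release or use of strand, so reads of antisense or overlapping genes cannot be told apart, nor can isoforms. Libraries were grouped by their labels, 3 for each of 6 groups, and the labels pair none of them across groups. Positions and exon lengths came from GENCODE 29. Symbols came from a separate list of gene names, or from GENCODE 29 where that list had none. Promoter sequences came from RefSeq (GRCh38.p14, all 10 genes matched), and 45 and 44 pseudoautosomal duplicate rows were left out. None of the 18 pairs of libraries within groups was identical.

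The 9 libraries of a line entered edgeR 4.0.16, run in R 4.3.3 (quasi-likelihood test, TMM, filterByExpr by group), and both lines together over 18 libraries for differences between them, with p adjusted over all tested genes by Benjamini-Hochberg. CPM uses the TMM-adjusted totals of the fit, and SE is the size of the log2 fold change divided by the root of F. Libraries of a group varied little (common biological coefficient of variation 0.0335 for H1650, 0.0433 for PC9), so small changes pass. Tested on simulated counts with 200 changed genes, the fit recovered 73.1% of 1.5-fold, 98.5% of 2-fold and 100% of 4-fold changes among 17937 genes of H1650, with 8.1% false calls, and 88.1%, 97.0% and 100% among 16169 genes of PC9, with 9.1% false calls. A far smaller share of genes was changed there than was called in the real counts, so these rates need not hold for them.

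The 10 genes, the role lists and the marker lists were chosen with earlier results of these data known. From each role list the text names per line up to 4 genes with the smallest p in any comparison among those at 5 CPM or more in some group, and genes called in opposite directions in the lines for Tr-BrM against BrM; 1 gene that the rule picks is not reported here, and genes of like profile are the 3 nearest to each of the 10 (pseudocount 0.5, 5 CPM or more). Alternatives were other scalings, filters, DESeq2 1.42.0, a test against a 1.2-fold change, fits of only the groups compared and leaving out each library; applying them to the role lists was added after the data were seen.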

Additional observations from a re-analysis of the deposited data

Results flagged for a closer look

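Changes that differed between the lines (PC9 minus H1650, edgeR's quasi-likelihood interaction test with Benjamini-Hochberg adjustment, n = 3 per group) came to 17 among the 10 genes in 2 contrasts. Such differences were common over all 19076 tested genes. For Tr-BrM against BrM controls 27.8% of them had a higher and 26.8% a lower change in PC9. For S100A9-inh against Tr-BrM control it was 20.7% and 19.7%. For Tr-BrM against BrM controls the difference was -0.87 ± 0.0777 for TGFB1, -0.29 ± 0.108 for TGFB2, -1.95 ± 0.0752 for LTBP2, -1.51 ± 0.0783 for TGFBR1, -0.74 ± 0.0550 for SMAD3, -1.34 ± 0.0989 for SMAD7, -1.70 ± 0.0969 for SKIL and -1.83 ± 0.0484 for PMEPA1. TGFBR2, at 1.67 ± 0.0540, and TGFBI, at 2.36 ± 0.0533, went the other way. The adjusted p ran from 2.15e-32 for TGFBI to 0.0236 for TGFB2. For S100A9-inh against Tr-BrM control the difference was -1.97 ± 0.107 for TGFB2, -0.24 ± 0.0733 for TGFBR1, -1.41 ± 0.0551 for TGFBR2, -0.74 ± 0.101 for SMAD7, -0.77 ± 0.0983 for SKIL and -0.81 ± 0.0476 for PMEPA1, with TGFBI again on the other side at 0.86 ± 0.0547. Here the adjusted p ran from 2.43e-23 for TGFBR2 to 0.00693 for TGFBR1. In the first contrast TGFBI fell in both lines, and more in H1650 than in PC9 (-3.76 against -1.40).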

How the results depend on the processing

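Fits of only the groups compared were read for counts of the 10 genes alone. No called change of the 10 genes or of the other named genes reversed under any other alternative. Over scalings, filters, DESeq2 and the 1.2-fold test, 535 of the fold changes of the 10 genes kept direction and side of the threshold, 23 were no longer called and 2 became called. Over left-out libraries 874 kept both, 20 lost and 6 gained the call. Of the other named genes' calls, 72 of 268 were lost under the 1.2-fold test, 38 of 1606 under the other settings and 86 of 2412 with a library left out. Of the counts over the role lists, many of them small, 43 of 112, 21 of 672 and 50 of 1260 moved by more than 1.5 times in the same order. Of counts of the 10 genes and of all genes, 221 stayed within 1.5 times and 15 moved, all 15 under the test of a change above 1.2-fold. That test asks for a larger change by construction. It called 0 of the 10 genes lower in H1650 S100A9-inh against Tr-BrM control, and 2 higher and 2 lower in PC9. Over all genes it called 3518 lower in H1650 Tr-BrM against BrM, 647 higher and 529 lower in H1650 S100A9-inh against Tr-BrM control, 3318 lower in H1650 S100A9-inh against BrM, 2835 higher and 3065 lower in PC9 Tr-BrM against BrM, 2230 higher and 1957 lower in PC9 S100A9-inh against Tr-BrM control, 1658 higher and 1652 lower in PC9 S100A9-inh against BrM, and 2425 and 2132 for the difference between lines under S100A9-inh. Of the other response genes it called 1 lower in H1650 S100A9-inh against Tr-BrM control, 3 higher in PC9 S100A9-inh against BrM and 7 higher for the difference between lines under S100A9-inh. The response genes lower in H1650 under S100A9-inh numbered 4 with RLE size factors, 5 with library size alone and 4 with a filter of 1 CPM in 3 libraries, and those higher in PC9 Tr-BrM numbered 5 with upper quartile scaling; the cause was not tested. Leaving out 1 library gave 0 to 1 of the 10 genes lower in H1650 S100A9-inh against Tr-BrM control, 1 to 3 response genes lower there and 3 to 5 response genes higher in PC9 Tr-BrM. Under S100A9-inh the difference between lines became called for SMAD3 with DESeq2 (-0.13, adjusted p = 0.0376) and without any 1 of 4 libraries (H1650 BrM replicate 3, H1650 Tr-BrM control replicate 2, H1650 S100A9-inh replicate 1 and PC9 S100A9-inh replicate 2), and for LTBP2 without PC9 S100A9-inh replicate 1 (-0.16, adjusted p = 0.0384). The difference of TGFBR1 was no longer called with library size alone (-0.18, adjusted p = 0.0585). In PC9, SMAD7 under S100A9-inh was not called with library size alone, upper quartile scaling, no filter or DESeq2, nor without any 1 of 3 libraries, PMEPA1 became called with library size alone (0.08, adjusted p = 0.0223), and the call of TGFBI against BrM ended under 4 scalings or filters. Other scalings moved the median of all genes by at most 0.083. No paired analysis was possible because the labels pair no libraries across groups. Genes with few counts, such as FBN2 in PC9, have wide errors at this depth, and counting error is only part of the spread.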

Other observations

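The BMP arm, the sister branch that signals through other SMADs, was read from its own list. In H1650 8 of 19 tested genes rose and 7 fell from BrM to Tr-BrM control, with a median of -0.01, and 7 rose and 4 fell under S100A9-inh, with a median of 0.10. In PC9 5 of 14 rose and 4 fell, with a median of 0.44, and then 5 rose and 6 fell, with a median of -0.18. Over all genes, 32.2% rose and 31.7% fell in H1650 Tr-BrM, and 29.6% and 30.3% in PC9. The shares under S100A9-inh were 15.4% and 13.8% in H1650, and 26.3% and 26.1% in PC9. BMP7 rose in Tr-BrM in both lines, from 66.2 ± 0.584 to 372 ± 5.93 CPM in H1650 (2.49 ± 0.0358) and from 0.416 ± 0.0264 to 12.5 ± 0.390 CPM in PC9 (4.89 ± 0.209), and fell under S100A9-inh by 0.60 ± 0.0313 and 1.29 ± 0.133. BMP2 had 4.22 ± 0.766, 25.4 ± 1.56 and 6.05 ± 0.890 CPM in the groups of PC9, a rise of 2.58 ± 0.117 in Tr-BrM followed by -2.06 ± 0.111 under S100A9-inh, and in H1650 it rose by 0.67 ± 0.0821 in Tr-BrM. BMP4 followed a like course in PC9, at 11.3 ± 0.836, 36.4 ± 2.35 and 14.3 ± 1.05 CPM, and was under 4 CPM in H1650. BMPR2, the main BMP receptor of type II, rose by 0.29 ± 0.0446 in H1650 Tr-BrM and fell by 1.67 ± 0.0677 in PC9, then rose under S100A9-inh by 0.42 ± 0.0415 and 0.75 ± 0.0711. BMP5 fell by 2.07 ± 0.0889 in H1650 Tr-BrM, and ID4, a target of BMP signals, rose there by 0.35 ± 0.0546 and under S100A9-inh by 0.47 ± 0.0498, while both were under 1 CPM in PC9.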
